A study of Mus musculus with 11 samples.

Results

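Brown fat burns fuel for heat, and 9 genes that the transcriptional regulator PRDM16 is known to support there were read in fetal lung epithelium of Control mice and of mice whose floxed Prdm16 and Prdm3 (a related gene) were recombined. They are Ucp1, Ucp2, Cidea, Dio2, Cox7a1, Cox8b, Elovl3, Ppargc1a and Ppargc1b. They were taken by symbol, and all 9 were found among the 24421 rows of the count table. Of these, 3 had enough counts to be tested for a genotype effect (Ucp2, Ppargc1a and Ppargc1b), and the other 6 together drew 116 of the 78899502 counts of the 11 libraries.

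RNA came from mouse lungs at E17.5, from cells held on magnetic beads by the epithelial surface protein EpCAM, and poly(A) RNA was sequenced in bulk. The 5 libraries named PRDM3/16KO, called knockout here, came from fetuses with floxed Prdm16 and floxed Prdm3 (listed as Mecom) recombined by Cre from the ShhCre allele, which follows the Shh gene and so acts in lung epithelium. The 6 Control libraries carry only that word as their genotype, and the design text calls them wild type. The cross given was between males with Prdm3fl/fl, Prdm16fl/wt and ShhCre and females with Prdm3fl/fl and Prdm16fl/fl, in which every offspring inherits floxed Prdm3 on both copies; whether Controls came from it, and whether they carried Cre, is not given in the sources used here. The labels do not tie each library to its own animal, so the p-values rest on library-to-library spread that could be technical in part.

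PRDM16 is a zinc-finger protein that steers precursor cells toward the brown fat fate. It acts with C/EBP-beta, PPAR-gamma, EBF2 and the PGC-1 coactivators to turn on mitochondrial and heat-producing genes, and with CtBP to silence white fat and muscle genes. UCP1 lets protons leak across the inner mitochondrial membrane, so that respiration yields heat in place of ATP. PGC-1-alpha, the product of Ppargc1a, joins cold and cyclic AMP signals to mitochondrial biogenesis, and in brown fat Ucp1, Dio2 and Ppargc1a are all induced through cyclic AMP.

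Because of that shared signal, the promoters of the members were searched for the core of the cyclic AMP response element, TGACG, in the 250 bases before the annotated start. Windows came from RefSeq on GRCm38.p6 and matched 6 of the 9 members, without Cidea, Elovl3 and Ppargc1b. The core occurred on either strand in 4 of the 6, those of Ppargc1a, Ucp2, Ucp1 and Dio2, against 17.8% of all 32851 windows of that length. The 4 are printed from 5′ to 3′ on the strand of the gene, with the core in capitals, because they place the 2 members with high counts beside 2 that were nearly silent. In Ppargc1a and Ucp2 the core lies on the other strand and reads CGTCA. In Dio2 the capitals are the full palindrome TGACGTCA, which contains the core on both strands.
Ppargc1a, chr5:51567726-51567975, minus strand: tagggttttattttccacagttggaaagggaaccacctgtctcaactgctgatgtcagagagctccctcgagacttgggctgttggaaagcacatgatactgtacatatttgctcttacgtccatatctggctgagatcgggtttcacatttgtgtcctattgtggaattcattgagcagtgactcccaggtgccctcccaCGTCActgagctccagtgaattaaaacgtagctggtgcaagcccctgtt
Ucp2, chr7:100493108-100493357, plus strand: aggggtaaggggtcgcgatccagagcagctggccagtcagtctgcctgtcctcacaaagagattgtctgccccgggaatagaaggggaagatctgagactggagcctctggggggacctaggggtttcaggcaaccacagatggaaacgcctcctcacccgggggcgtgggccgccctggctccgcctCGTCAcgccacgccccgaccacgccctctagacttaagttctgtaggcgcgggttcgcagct
Ucp1, chr8:83290098-83290347, plus strand: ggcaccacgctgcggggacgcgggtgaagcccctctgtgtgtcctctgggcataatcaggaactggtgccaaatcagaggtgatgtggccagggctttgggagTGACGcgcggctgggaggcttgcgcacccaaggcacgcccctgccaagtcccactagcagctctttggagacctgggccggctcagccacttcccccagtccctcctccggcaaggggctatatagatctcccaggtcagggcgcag
Dio2, chr12:90739039-90739288, minus strand: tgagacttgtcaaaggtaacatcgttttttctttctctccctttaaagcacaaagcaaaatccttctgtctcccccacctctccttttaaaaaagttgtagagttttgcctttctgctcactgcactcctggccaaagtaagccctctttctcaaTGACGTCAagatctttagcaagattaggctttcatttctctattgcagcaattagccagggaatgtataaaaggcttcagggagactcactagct

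The core stood 49 to 45 bases before the start in Ppargc1a, 62 to 58 in Ucp2 and 147 to 143 in Ucp1. The palindrome of Dio2, 95 to 88 bases before its start, was found in 1.55% of all windows. Dio2 also had TATAAA, as did 12.4% of windows. The window of Cox7a1 had no cyclic AMP core but 2 copies of CCAAT, which 33.8% of windows hold. Neither CTCAAG (a core bound by the lung factor NKX2-1, in 13.3% of windows) nor the strict nuclear receptor repeat known as DR1 (in 0.0335%) occurred in any of the 6, both strands being searched for each motif. CpG counts ran from 1 in Cox8b and 2 in Dio2 through 4 in Cox7a1, 5 in Ppargc1a and 12 in Ucp1 to 16 in Ucp2, with a median of 6 over all windows. The RefSeq start of Dio2 lies upstream of the GENCODE bounds of the gene given with its counts. These letters are descriptions of the windows, and promoter activity was not measured. They did not sort the members by level, since the core was present both in the well-expressed Ppargc1a and Ucp2 and in the nearly silent Ucp1 and Dio2.

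Totals ran from 6065906 to 7869787 counts per library, and CPM (counts per unit of sequencing depth) uses library sizes scaled with edgeR's TMM factors. The genotype effect was tested with edgeR's quasi-likelihood test over 13916 genes, with a threshold of 0.05 on the p adjusted by Benjamini-Hochberg. Prdm16 was at 173 to 227 CPM in Control and 147 to 181 in knockout, and Mecom at 206 to 233 and 321 to 354. Prdm16 was lower by edgeR's test (log2 change -0.28, adjusted p = 0.00905) but far from absent, and Mecom was higher (0.64, adjusted p = 3.26e-07). The Prdm16 call was lost with library size alone as the scaling (-0.18, edgeR adjusted p = 0.0576). It was also lost with the mesenchymal marker level as a covariate (-0.15, edgeR adjusted p = 0.4545). These counts cover whole genes and the recombined exons are not named, so they check the labels only weakly. The 8 epithelial markers summed to 5554 to 6260 CPM in Control and 5549 to 6042 in knockout. Y-linked transcripts were high in Control 1, 3, 4 and 5 and knockout 4, and proliferation genes stood highest in Control 5 and 6.

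Of the 9 members, the lung epithelium held appreciable message for the coactivator gene Ppargc1a and for Ucp2 only. Both fell in the knockout, Ppargc1a 2.43-fold and Ucp2 1.27-fold, and the second coactivator gene Ppargc1b was low in both genotypes and did not pass the test. The other 6 members, the heat-producing gene Ucp1 among them, were at or near 0 counts in Control and in knockout alike. The 24 other brown fat genes described below summed to 766 to 910 CPM in Control, but unevenly. Atp2a2 alone averaged 398 CPM in Control, and Ppm1b 91.4. Of the 24, 18 had enough counts to be tested. Others were near 0, such as Otop1, with 5 counts in Control and 2 in knockout, and Ckmt2, with 0 and 1. The count of 2 members past the threshold, out of 3 tested, stands against a background of 42.9% of all tested genes, or 21.8% for a fall, so the count by itself says little about these members.

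**Figure D1:**
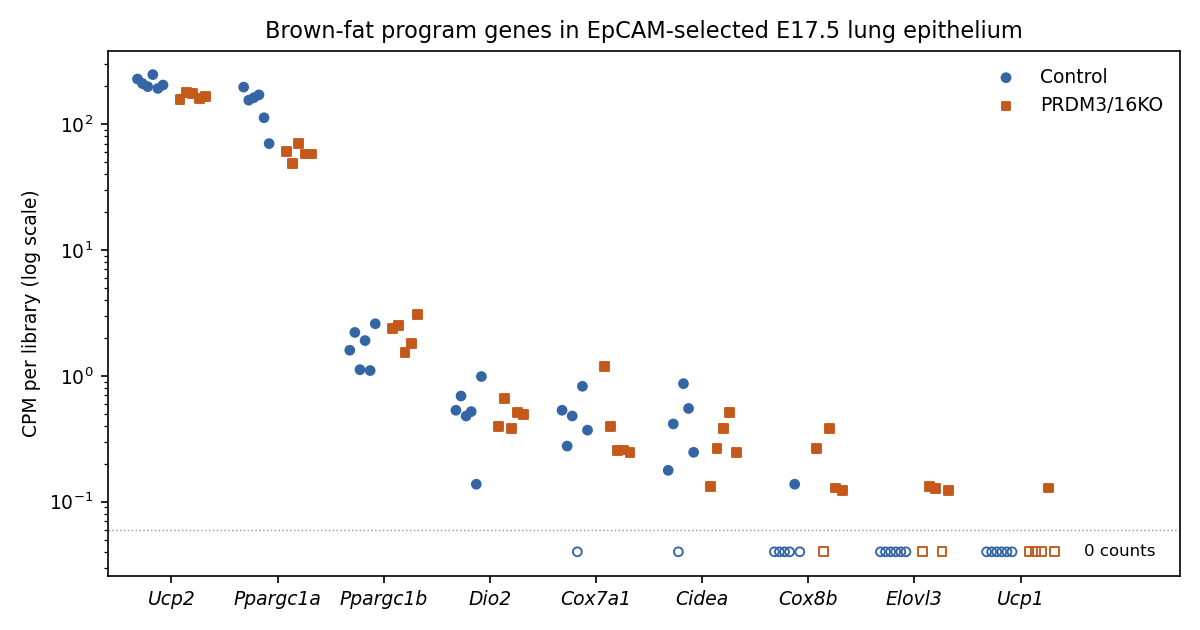
CPM of each member in each library on a log axis, 6 Control libraries as circles and 5 knockout libraries as squares; hollow symbols under the dotted line are libraries with 0 counts. Ucp2 and Ppargc1a lie above 48 CPM in all 11 libraries, Ppargc1b between 1.1 and 3.08 CPM, and the other 6 members at 9 counts or fewer in every library.

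Ppargc1a (ENSMUSG00000029167, chromosome 5, 51454250 to 51567726, minus strand, mm10) encodes PGC-1-alpha. Its level in the 6 Control libraries was 70.0 CPM at the lowest, 159 at the median and 197 at the highest. In the 5 knockout libraries it was 60.5, 48.9, 70.7, 57.9 and 57.9 CPM. The knockout libraries lay close together and under Control 1 to 5, while Control 6, at 70.0 CPM, lay just under knockout 3. The group means were 144 ± 45.6 CPM (SD, n = 6) and 59.2 ± 7.81 (SD, n = 5). On the log2 scale the change was -1.28, with an SE of 0.22 and an approximate 95% interval from -1.77 to -0.79 (edgeR adjusted p = 0.000331). A fall of at least 2-fold past the threshold was seen for 4.53% of all tested genes.

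The 2 Control libraries lowest in Ppargc1a, Control 5 at 112 CPM and Control 6 at 70.0 CPM, were also the 2 with the highest proliferation sums, 630 and 886 CPM over 12 genes against 189 to 388 in the other Controls. They had the lowest sums of 10 type 2 alveolar cell markers among Controls, 8936 and 7256 CPM against 10714 to 12773 in the other 4. In the knockout the proliferation sum was 313 to 452 CPM, within the Control range, and the type 2 sum was 2491 to 3772 CPM, under every Control. All 10 type 2 markers passed as lower, against 21.8% of all tested genes. Without these 2 libraries the log2 fold change of Ppargc1a was -1.53 and the groups did not overlap, as leaving out the lowest Controls must enlarge the difference, so this value is no support for it. In bulk RNA, fewer cells of a type and less RNA per cell cannot be told apart, and the part of these markers in the Ppargc1a difference was not tested.

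Y-linked message split the libraries in a way that crossed the genotypes unevenly, 4 of 6 Control but 1 of 5 knockout libraries being high. Among low-Y libraries alone (2 Control, 4 knockout) the log2 fold change of Ppargc1a was -0.92 (edgeR adjusted p = 0.0473). Among high-Y libraries (4 Control, 1 knockout, whose spread was taken to be that of the others) it was -1.48, a value that rests on a single knockout library. The low-Y Controls were Control 2, at 155 CPM, and Control 6, at 70.0.

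Ppargc1b (chromosome 18, 61298136 to 61400431, minus strand) encodes PGC-1-beta, a coactivator of the same mitochondrial genes. It drew 7 to 21 counts per Control library and 12 to 25 per knockout library. That was 1.1 CPM at the lowest, 1.76 on average (SD 0.598, n = 6) and 2.59 at the highest in Control. In knockout it was 2.39, 2.50, 1.54, 1.80 and 3.08 CPM. The groups overlapped over most of their range, and the change of 0.35 on the log2 scale, with an SE of 0.27, did not pass (edgeR adjusted p = 0.324). Its interval, -0.26 to 0.96, leaves room for a small fall or for nearly a doubling, and its sign turned to -0.02 among low-Y libraries.

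Per kilobase of exon, Ppargc1b made up 2.32% ± 1.74 (SD, n = 6) of the summed level of the Ppargc1a and Ppargc1b pair in Control and 6.07% ± 1.95 (SD, n = 5) in knockout. The ranges of this share, 1.13 to 5.77% and 3.47 to 8.09%, overlapped. The third family member, Pprc1, which encodes the PGC-1-related coactivator, was at 57.8 ± 7.47 CPM in Control and 65.2 ± 2.84 in knockout (log2 fold change 0.17, edgeR adjusted p = 0.110). Without Control 6 that adjusted p was 0.0431, with a log2 fold change of 0.21. Per kilobase, Ppargc1a stood at 21.9 in Control against 9.20 for Pprc1, and at 8.97 in knockout against 10.4.

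**Figure D2:**
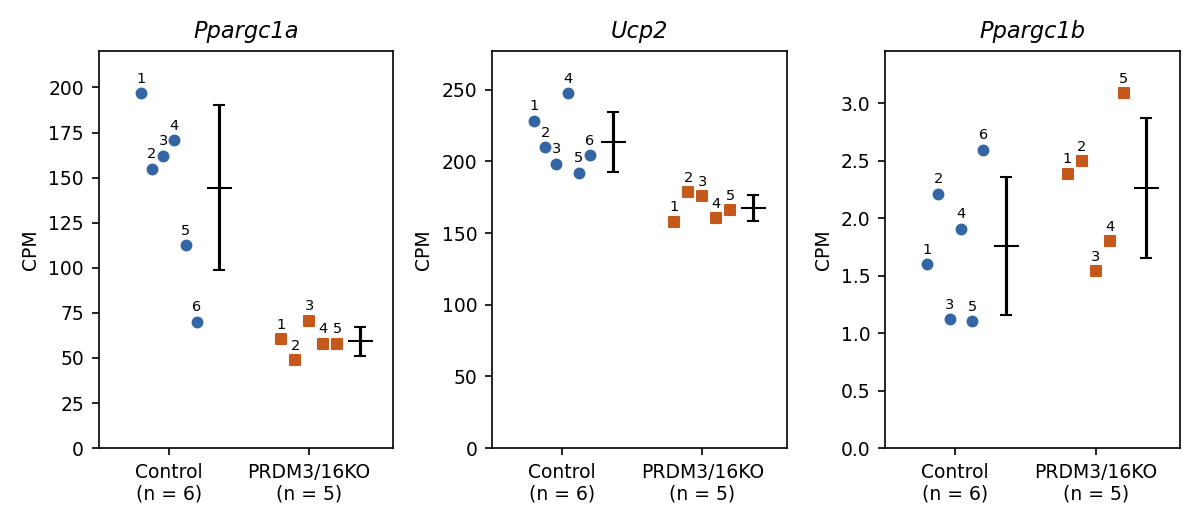
CPM of the 3 tested members by library, numbered by replicate, with mean ± SD beside each group (6 Control, 5 knockout) on linear axes that start at 0. Control 6 alone among Controls reaches into the knockout range of Ppargc1a, the groups of Ucp2 do not overlap, and those of Ppargc1b do.

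Ucp2 (ENSMUSG00000033685, chromosome 7, 100493337 to 100502020, plus strand) encodes a mitochondrial carrier related to UCP1 that is found in many tissues and is not a heat-producing protein of brown fat. Its Control libraries held 192 CPM at the lowest, 207 at the median and 247 at the highest. The knockout libraries held 158, 178, 176, 160 and 166 CPM. Every knockout library lay under every Control library, as was so for 14.2% of all tested genes, while groups apart in either direction made up 28.5%. Its log2 change of -0.35 had an SE of 0.071 (edgeR adjusted p = 0.00105), from 213 ± 20.7 CPM (SD, n = 6) to 168 ± 9.14 (SD, n = 5). Within high-Y libraries alone it was -0.44 and did not pass (edgeR adjusted p = 0.141).

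The last exon bases of Ucp2 overlap those of Dnajb13 on the opposite strand, and the strand setting of the counting is not given in the sources used here. Dnajb13, a gene of cilia and sperm flagella, was at 15.5 ± 4.58 CPM in Control and 11.9 ± 1.67 in knockout, and its log2 fold change of -0.37 did not pass (edgeR adjusted p = 0.113). Exons of Ppargc1a and Ppargc1b overlap no other annotated gene.

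Ucp1 (chromosome 8, 83290352 to 83298452, plus strand), the defining heat-producing gene of brown fat, had 0 counts in all 6 Control libraries and 1 count in the 5 knockout libraries, in knockout 4. The limit that a count of 0 allows, 3 counts over the group, is 0.0745 CPM in Control. Elovl3 (chromosome 19, 46131897 to 46135694), a fatty acid elongase induced by cold in brown fat, had 0 counts in Control and 3 in knockout, 1 each in knockout 2, 3 and 5. Both groups were at or under the limit for both genes, so no fold was computed. Elovl3 also shares exon bases with Pitx3 on the opposite strand, which drew 0 counts in Control and 23 in knockout.

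Cidea (chromosome 18, 67343604 to 67367785), a lipid droplet protein that marks brown fat, had 15 counts in all in Control and 12 in knockout. Per library that was 0 to 5 and 1 to 4. The depth-scaled ratio of knockout to Control was 0.829, with a 95% interval of 0.354 to 1.90 that, like the others here, covers counting error only. Dio2 (chromosome 12, 90724552 to 90738438, minus strand), the deiodinase that makes active thyroid hormone inside brown fat cells, had 23 counts in Control, 1 to 8 per library, and 19 in knockout, 3 to 5 per library. Its ratio was 0.856 (0.441 to 1.64). Exons of Dio2 overlap those of Gm26512 on the opposite strand, so these few counts may not all be from Dio2. For both genes the interval holds both a fall and a rise, so a genotype difference was not detectable at this depth.

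Cox7a1 (chromosome 7, 30184144 to 30186078), the heart, muscle and brown fat form of a cytochrome c oxidase subunit, had 17 counts in Control, 0 to 6 per library, and 18 in knockout. In knockout the counts were 9, 3, 2, 2 and 2, so 1 library held 9 of the 18. The ratio was 1.1 (0.534 to 2.27). Cox8b (chromosome 7, 140898945 to 140900446, minus strand), the corresponding form of another subunit, had 1 count in Control and 7 in knockout, with 2, 0, 3, 1 and 1 per library. Its ratio of 7.25 had an interval of 0.932 to 327, which includes no difference. With no filter on low counts, which let 19503 genes be tested, none of these 6 members passed edgeR's quasi-likelihood test: the lowest adjusted p was 0.0825, for Cox8b (unadjusted 0.0311), and the next 0.123, for Elovl3. Cox8b was the only one of the 6 with an unadjusted p under 0.05.

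Ordered by CPM per kilobase of exon, the Control levels were 30.5 for Ucp2 and 21.9 for Ppargc1a, with ranges that overlapped. A wide gap followed, down to 0.774 for Cox7a1, 0.440 for Ppargc1b, 0.337 for Cidea, 0.0960 for Dio2 and 0.0638 for Cox8b, each of which overlapped its neighbour in range, and 0 for Ucp1 and Elovl3. In knockout Ucp2, at 24.0, and Ppargc1a, at 8.97, no longer overlapped. Below them came Cox7a1 at 0.878, Ppargc1b at 0.567, Cox8b at 0.501 and Cidea at 0.276, neighbours that overlapped in range, and then Dio2 at 0.0842, whose range lay under that of Cidea. Elovl3, at 0.0388, and Ucp1, at 0.0157, came last. Exon length here is the union over transcripts, which is longest against the main transcript for Ucp2 (6989 and 3988 bases); by the main transcript Ucp2 stood at 53.5 in Control and 42.0 in knockout. Over all matched genes of the table, by the mean of the 11 libraries, Ucp2 exceeded 92.2% and Ppargc1a 86.0%, while Cox7a1 exceeded 46.2% and Ucp1 21.8%.

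The silent members have relatives that do similar work in other tissues, and most of these were expressed here. Among uncoupling proteins, Ucp3, the muscle form, had 3 counts in Control and 7 in knockout. Slc25a27 (UCP4), known from brain, rose from 20.2 ± 2.07 to 32.8 ± 1.68 CPM, a log2 change of 0.70 with an edgeR adjusted p of 6.03e-06. Slc25a14 (UCP5) was at 3.03 ± 0.861 and 3.14 ± 0.775 CPM, and its log2 fold change of 0.06 did not pass and changed sign when any of 3 single libraries was left out. Cideb had 18 and 12 counts, and Cidec, the white fat form, 12 and 40.

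The general oxidase subunit genes Cox8a and Cox7a2 had more message than their muscle and brown fat forms, Cox8b and Cox7a1. Cox8a was at 98.1 ± 7.94 CPM in Control and 86.7 ± 3.36 in knockout (log2 fold change -0.18, edgeR adjusted p = 0.0339), and per kilobase Cox8b made up 0.0422% of the pair in Control. The call for Cox8a was lost when any of 4 knockout libraries was left out, with adjusted p up to 0.119 without knockout 2. In all it was lost under 12 of 25 alternatives, and with library size alone as the scaling the log2 change was -0.07 (adjusted p = 0.409). Cox7a1 made up 8.44% ± 5.20 (SD, n = 6) of its pair with Cox7a2 per kilobase in Control and 10.3% ± 7.75 (SD, n = 5) in knockout. Cox7a2 itself was at 8.41 ± 2.00 and 6.86 ± 1.03 CPM and did not pass, nor did Cox7a2l, at 152 ± 29.6 and 156 ± 4.32 CPM. Processed copies of genes for small oxidase subunits exist in the genome, so their counts may be shared with those copies.

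Another muscle-type oxidase gene, from the list of other subunits, rose steeply in the knockout. Cox6a2, the heart and muscle form of subunit 6A, had 0 to 3 counts per Control library and 37, 39, 51, 49 and 40 in the knockout libraries. On the log2 scale it rose by 4.80, with an SE of 0.34 (edgeR adjusted p = 2.81e-08). Every knockout library lay far over every Control library, at 5.56 ± 0.791 against 0.215 ± 0.187 CPM. Cox6a2 shares exon bases with Itgad on the opposite strand, an integrin gene of leukocytes, which had 2 counts in Control and 52 in knockout. Of 15 cardiac and striated muscle markers, 7 were tested and 4 were higher in knockout, against 21.1% of all tested genes. The sum of the 15 was 65.0 to 111 CPM in Control and 155 to 211 in knockout. Myh7 gave most of that sum, and the other 14 summed to 13.6 to 26.8 and 18.5 to 42.3 CPM. Of 12 leukocyte markers 11 were tested, 5 higher and 1, Cd14, lower, against 21.1% and 21.8% of all tested genes. Those apart from Cd14 summed to 23.8 to 77.1 CPM in Control and 54.7 to 176 in knockout. The part of the muscle and leukocyte cell types in the Cox6a2 difference was not tested.

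Among elongases, Elovl6, which lengthens saturated and monounsaturated fatty acids in lipogenic tissues, rose from 4.00 ± 1.18 to 19.3 ± 2.24 CPM, a log2 change of 2.26 with an edgeR adjusted p of 5.26e-08. Elovl5, for polyunsaturated chains, fell from 404 ± 70.7 to 302 ± 9.66 CPM, a log2 change of -0.42 with an edgeR adjusted p of 0.00547. That call was lost with the mesenchymal covariate (-0.29, adjusted p = 0.288) and within low-Y (-0.28, adjusted p = 0.178) and high-Y libraries (adjusted p = 0.144). Elovl1 (54.3 and 42.9 CPM), Elovl2 (14.9 and 15.5 CPM) and Elovl7 (49.4 and 46.3 CPM) did not pass. Without Control 6, Elovl1 passed as lower, with a log2 fold change of -0.42 and an adjusted p of 0.0104. Elovl7 passed as lower without Control 5 and 6 (-0.20, adjusted p = 0.0257), and its sign turned with library size alone and with the mesenchymal covariate. Elovl4 drew 30 counts in Control and 22 in knockout.

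**Figure D3:**
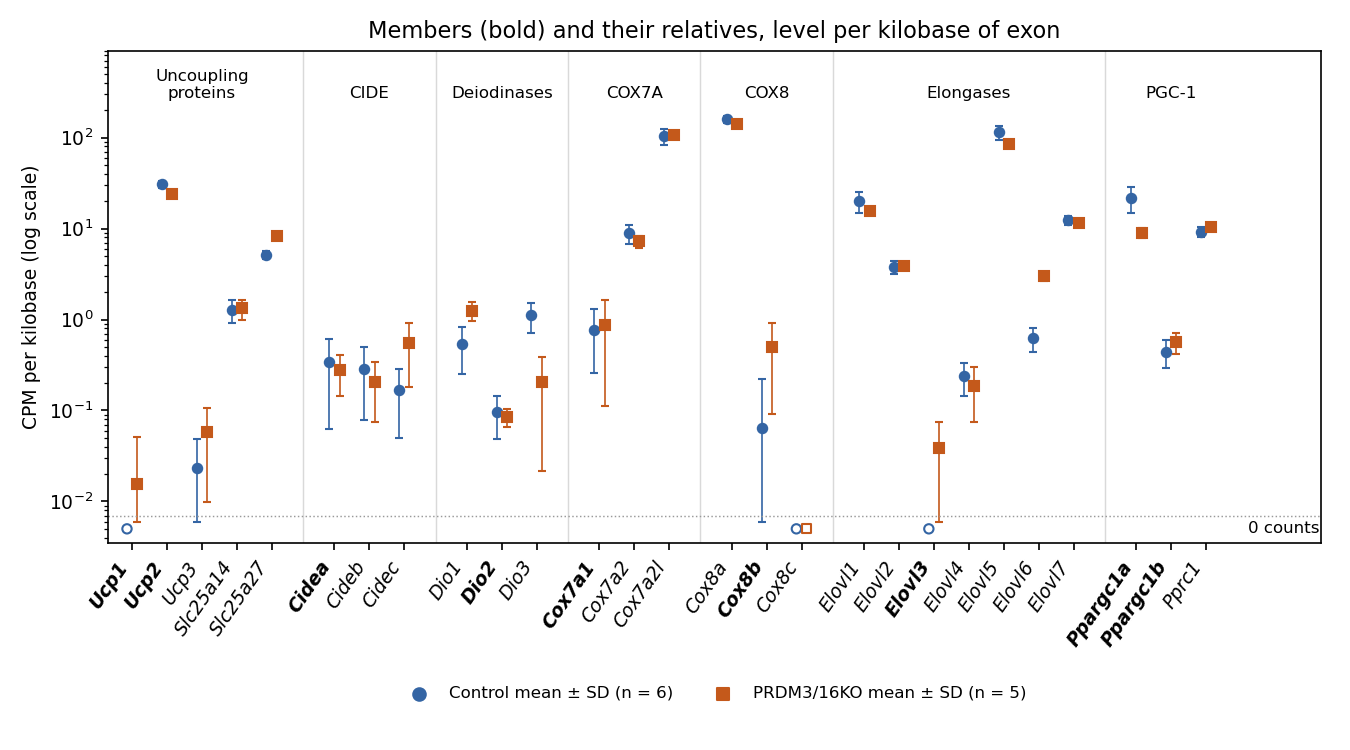
Mean CPM per kilobase of exon ± SD for members (bold) and their relatives in 6 Control (circles) and 5 knockout (squares) libraries, on a log axis; hollow symbols are groups with 0 counts, and bars that would reach 0 end below the dotted line. Ucp1, Dio2, Cox7a1, Cox8b and Elovl3 each lie under the most abundant gene of their family by over 1 step of the log scale.

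Dio2 belongs to the thyroid hormone pathway, whose other genes were given by a list of 10. Of these, 7 were tested and all passed, 2 higher and 5 lower in knockout, against 42.9% of all tested genes called, 21.1% higher and 21.8% lower, with a median log2 fold change of -0.57 against 0.0023 over all tested genes. Dio3, the deiodinase that inactivates the hormone, had 94 counts in Control and 16 in knockout (log2 fold change -2.49, edgeR adjusted p = 0.000694). Dio1, an activating deiodinase, had 43 and 96 counts (log2 fold change 1.20, edgeR adjusted p = 0.00842). The receptor genes Thra and Thrb had log2 fold changes of -0.42 and -0.57 and the transporter gene Slc16a10 one of -0.58, while Rxra, a partner of many nuclear receptors, rose by 0.31. The fall of Slc16a10 lost its call without Control 1, knockout 4 or knockout 5, with adjusted p up to 0.0674. Slco1c1 had 0 counts in every library. With the mesenchymal marker level as a covariate, Dio3 passed, and Dio1, Rxra, Slc16a10, Thra and Thrb did not, with adjusted p from 0.0552 for Dio1 to 0.238 for Thrb.

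Of 22 partners and regulators of PRDM16 in brown fat, 19 were tested, of which 2 were higher, 6 lower and 11 not past the threshold, a share of 42.1% called against 42.9% of all tested genes (median log2 fold change -0.12). Pparg, the master regulator of fat cells, rose from 4.44 ± 0.898 to 13.2 ± 2.55 CPM, a log2 change of 1.59 with an edgeR adjusted p of 1.43e-06. Ppara, its relative for fatty acid burning, fell from 28.0 ± 4.42 to 12.6 ± 0.467 CPM, a log2 change of -1.14 with an edgeR adjusted p of 8.53e-07. Cebpa fell by 0.88 and Cebpb by 0.64 on the log2 scale, to 354 and 133 CPM. The PRDM16 partner gene Zfp516 (log2 fold change -0.13) did not pass, though it passed as lower without Control 4, at an adjusted p of 0.0442. The brown fat precursor factors Zic1 and Lhx8 had 0 counts in all 11 libraries.

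Of 25 other genes of brown fat, 24 were found and 18 tested, with 7 higher, 2 lower and 9 not past the threshold, a share of 50% called against 42.9% of all tested genes (median log2 fold change 0.05). Bmp8b, a secreted factor of brown fat, rose from 11 ± 1.65 to 25 ± 3.22 CPM, by 1.18 on the log2 scale (edgeR adjusted p = 1.36e-06). Pdk4, which turns cells from glucose to fatty acid use, rose by 1.42, from 12.4 ± 3.02 to 32.7 ± 4.96 CPM. Eva1a, counted among the 2 lower genes, fell by 0.61 on the log2 scale, from 55.3 to 36.4 CPM. It is a different gene from the brown fat marker Mpzl2, once named Eva1, so its place on this list is doubtful. Adrb3, the adrenergic receptor that starts heat production, had 41 counts in Control and 89 in knockout (log2 fold change 1.17, edgeR adjusted p = 0.00640). Fgf21, a hormone that brown fat secretes, had 0 counts in all 6 Control libraries and 6, 4, 6, 5 and 4 in knockout. The knockout level was 8.63 times the limit of 3 counts over the Control group. With counting error in both groups, the lower 95% bound of the ratio was 6.52.

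The genes that PGC-1 coactivators work with or switch on did not move one way with Ppargc1a. Of 27, all tested, 5 were higher, 8 lower and 14 not past the threshold, a share of 48.1% called against 42.9% of all genes, with a median log2 fold change of -0.02. Sod2, a mitochondrial antioxidant enzyme, fell by 0.82 on the log2 scale, from 116 ± 12.7 to 65.8 ± 4.30 CPM. Cpt1a, which admits fatty acids to mitochondria, fell by 0.86, from 67.0 ± 7.46 to 36.9 ± 4.53 CPM. Perm1, a regulator induced by PGC-1 in muscle, rose by 0.92, from 7.43 ± 1.48 to 14.1 ± 1.49 CPM, and Cs, citrate synthase, rose by 0.32, from 214 ± 15.6 to 268 ± 6.86 CPM.

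The remaining lists held genes that moved in both directions. Over all tested genes, 42.9% were called, 21.1% higher and 21.8% lower. Of 9 uncoupling relatives and near carriers, 8 were tested, 2 higher and 3 lower (62.5% called, median -0.02). Slc25a4, the adenine nucleotide carrier of heart and muscle, rose by 0.37 on the log2 scale, and the dicarboxylate carrier gene Slc25a10 fell by 0.63. Of 15 other cytochrome c oxidase genes, 14 were tested, 1 higher and 3 lower (28.6% called, median -0.06), with Cox4i2 down by 1.08 and Cox6a1 by 0.31. Of 6 other elongases, 5 were tested, 1 higher and 1 lower (40% called, median -0.09). Of 14 CIDE and lipid droplet genes, 11 were tested, 1 higher and 4 lower (45.5% called, median -0.21). Plin3, Dgat2 and Abhd5 fell by 0.51, 0.72 and 0.99 on the log2 scale, and the lipase gene Pnpla2 did not pass (87.5 and 79.4 CPM).

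**Figure D4:**
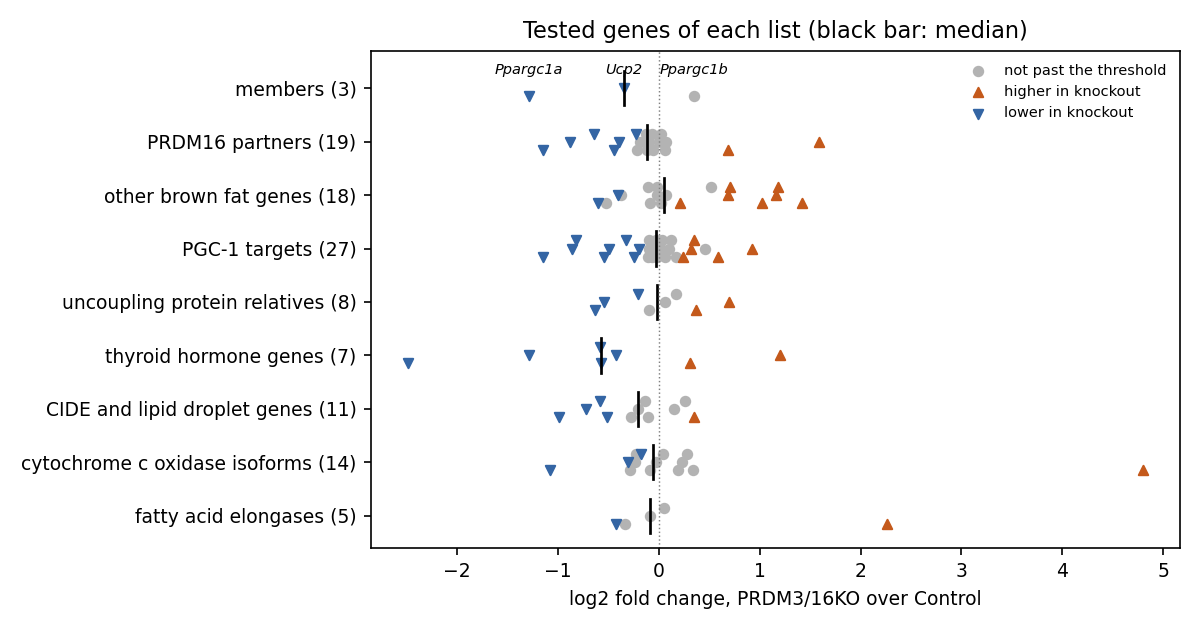
Log2 fold changes (knockout over Control) of the tested genes of the members and 8 pathway or family lists, with triangles for genes past the threshold, gray circles for the others, a black bar at each list's median and the number tested in brackets. Ppargc1a is the lowest of the 3 tested members at -1.28, and the medians of the other 8 lists shown run from -0.57 to 0.05.

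Fat cells themselves were scarcely present by their markers. Of 9 adipocyte markers, only Lipe had enough counts to be tested, and it did not pass. The other 8 summed to 0.741 to 1.56 CPM in Control and 1.80 to 22.5 in knockout. Adipoq, the fat cell hormone adiponectin, had 6 counts in Control and 33 in knockout, 21 of them in knockout 5, and Car3 had 11 and 130, 71 of them in knockout 5. In that library Ucp1 had 0 counts and Elovl3 had 1. Of 10 mesenchymal markers 9 were tested and 6 were higher in knockout, against 21.1% of all tested genes. The mesenchymal markers summed to 261 to 433 CPM in Control and 412 to 755 in knockout. Their part in the low counts of the silent members was not tested. Endothelial markers summed to 60.0 to 102 and 46.0 to 66.2 CPM (2 of 5 tested higher, 1 lower, against 21.1% and 21.8% of all tested genes). Most of that sum in Control was Kdr, the gene called lower, at 58.1 ± 16.0 CPM against 24.7 ± 2.10 in knockout. The 2 called higher, Pecam1 and Cdh5, went from 5.28 to 11.1 and from 6.09 to 10.8 CPM. Smooth muscle markers summed to 72.6 to 150 and 91.4 to 194 CPM (1 of 4 tested higher). Erythroid markers summed to 1.85 to 15.8 and 4.81 to 30.9 CPM, with Hbb-bt, Hba-a1 and Hba-a2 at 0. Most of these sums was Alas2, with 250 counts in Control and 435 in knockout. How reads that match more than 1 gene were treated is not given, so the zeros do not show that globin message was absent.

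The genes most like each tested member were taken by Pearson's correlation of log2 CPM over the 11 libraries, as a description in which the genotype difference is part of the likeness. For Ppargc1a they were Ccdc68 (r 0.987), Rab3d (0.983) and Tcp11l2 (0.982), all 3 lower in knockout, by 1.20, 0.47 and 0.55 on the log2 scale. For Ucp2 they included Rab5c (0.977) and Itfg3 (0.967). For Ppargc1b, whose low counts limit any likeness, they were Ltv1 (0.835), Rbmx2 (0.820) and Slc43a1 (0.811).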

How the data were processed

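Bulk poly(A) RNA was measured in 6 Control and 5 knockout libraries. The authors deposited whole-number counts per gene under gene symbols. Tools listed, without roles, in the submitters' processing notes are HTSeq 2.0, DESeq2, Bowtie2 2.4.2, Trim Galore 0.4.2, FastQC, Picard 2.18.22 and SAMtools 1.10.0, with mm10 as the build. Which annotation and strand setting were used, and how ambiguous reads were treated, is not given in the sources used here. Besides the genes marked above, other named genes share exon bases with a gene on the opposite strand. Among them are Bmp8b with Ppie, Thra with Nr1d1, Cebpb with Tmem189, Elovl1 with Cdc20 and Pprc1 with Ldb1. Their counts may thus not all be their own.

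From these counts, genes were filtered with filterByExpr, scaled by TMM and tested on all 13916 remaining genes with edgeR 4.0.16 (quasi-likelihood, robust, two-sided) in R 4.3.3. The approximate interval of a log2 fold change uses its SE and 9 residual degrees of freedom. Alternatives used DESeq2 1.42.0 and limma 3.58.1. The edgeR step was tested on simulated data. Coordinates and exon lengths came from GENCODE M21 on the same build, matched for 98.2% of rows. Totals of 6065906 to 7869787 counts put the limit of 3 counts at 0.0745 CPM over the Control group and 0.0772 over the knockout group; intervals cover counting error only.

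The members and gene lists were chosen with earlier results of these data known. Named genes were all members, their family relatives, up to 3 genes of each list past the threshold by smallest adjusted p and up to 2 others by highest level, and the 3 genes most correlated with each tested member. Adrb3, Fgf21, Perm1, Cs, Thra, Thrb, Slc16a10, Cebpb, Adipoq and Car3 were named after their values were seen, and the proliferation and type 2 marker lists were added then. Marker genes of other cell types are given mainly as counts and sums. Some genes that the rule names are not reported here. Correlations of deviations of same-numbered libraries ran from -0.059 to 0.27. The highest of any Control and knockout pair was the 0.27 of Control 5 and knockout 5. Such correlations cannot exclude a shared litter or preparation. The labels give no pairing, and none was used in the main fit.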

Additional observations from a re-analysis of the deposited data

Results flagged for a closer look

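Across 60 genes and 120 groups of libraries, 8 single libraries stood apart from the rest of their group by Dixon's criterion, which chance meets in about 1 in 20 groups. Among members, 3 were so marked: Ucp1 in knockout 4 (0.129 CPM, 1 count, against 0 in the others), Cox8b in Control 5 (0.138 CPM, 1 count, against 0 in the others) and Cox7a1 in knockout 1 (1.19 CPM, 9 counts, against 0.247 to 0.394 CPM). A group in which only 1 library has counts is always marked by this criterion. The marks of Ucp1 and Cox8b were thus fixed by their low counts, and the 1 in 20 rate does not hold for them. Among their relatives, Cox7a2 stood high in knockout 2, at 8.67 CPM against 6.17 to 6.63, and Cox8a in Control 4, at 113 CPM against 91.9 to 99.8. The fat cell gene Adipoq stood high in knockout 5, at 2.59 CPM against at most 0.657, and in Control 3, at 0.480 CPM or 3 counts. Car3 stood high in knockout 5, at 8.76 CPM against 0.515 to 2.89.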

How the results depend on the processing

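Setting aside high-Y libraries alone, with 1 knockout library, and the omission of Control 5 and 6, the Controls lowest in Ppargc1a, 23 alternatives were run. Ppargc1a was lower in knockout and past the threshold under 23 (log2 fold change -1.43 to -0.92), and Ucp2 under 23 (-0.38 to -0.24). In high-Y libraries alone Ucp2 was at -0.44 (adjusted p 0.141) and 1 member passed in place of 2; the causes of these shifts were not tested. Leaving out single libraries gave -1.43 to -1.18 for Ppargc1a, -0.38 to -0.30 for Ucp2, 0.21 to 0.51 for Ppargc1b, and 5375 to 6389 genes past the threshold against 5973. That number was 2995 (1505 higher, 1490 lower) with the mesenchymal level as a covariate, 3753 (1932, 1821) in low-Y and 1802 (869, 933) in high-Y libraries, where fewer libraries were fitted; both Y-linked splits and the omission of Control 5 and 6 were chosen after seeing the data. Scaling by library size alone gave 3992 higher and 2095 lower, against 2936 and 3037, and moved the median of all genes to 0.11. With the mesenchymal covariate the calls of Prdm16 (adjusted p 0.4545), Abhd5 (0.0590), Cox6a1 (0.0725), Cox8a (0.227) and Adrb3 (0.224) were lost too. Cox8a was also lost with upper-quartile factors (0.130), no filter (0.0570) and the Y-linked covariate (0.0730). Signs changed, without a call, for Ppargc1b in low-Y libraries (-0.024), Cox7a2l without Control 5 (-0.0073), without Control 6 (-0.010), without both (-0.087) and in high-Y libraries (-0.0069), Elovl7 by library size alone (0.019) and with the mesenchymal covariate (0.020), Elovl2 without Control 1 (-0.012, single omissions reaching 0.13), and Slc25a14 without Control 2 (-0.0085), Control 3 (-0.013) or knockout 5 (-0.057, single omissions reaching 0.18) and in high-Y libraries (-0.60).

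With the replicate number as a block, which the labels do not tie to animals, Ppargc1a was at -1.42, Ucp2 at -0.35 and Ppargc1b at 0.52, with 2 members past the threshold as before. With the block, Elovl1 (adjusted p 0.00454) and Pprc1 (0.0325) passed and Cox8a (0.0549) did not. Depth limits the 6 members with at most 9 counts per library.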
